A study of Arabidopsis thaliana with 31 samples.

Results

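Transcript levels in Arabidopsis thaliana seedlings of the double mutant nrp1-1 nrp2-2 were compared with those of the wild type Col-0 across all measured genes. The comparison took the 10 libraries that the labels assign to these genotypes in experiment B, 5 for each, out of 31 libraries in the series. Whole seedlings were harvested at day 12 after germination from plants grown on soil in long days at about 21 degrees, after 4 days of cold treatment of the seed at 4 degrees. The same experiment holds gcn5-7, a mutant of the histone acetyltransferase GCN5, and the triple mutant gcn5-7 nrp1-1 nrp2-2, again with 5 libraries each. Triple mutant against gcn5-7 is the same loss of NRP in libraries that share no sample with the main comparison. The labels give no further detail of the alleles, do not say whether each genotype was 1 line or several, and do not say whether replicates were grown separately, and the p-values therefore describe variation among these libraries, which may be technical.

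NRP1 and NRP2 belong to the NAP1/SET family of histone chaperones, acidic proteins that bind histones H2A and H2B outside nucleosomes and hand them on during nucleosome assembly and disassembly. In Arabidopsis the pair is known to act redundantly in root growth and somatic homologous recombination. Mitochondria, which take up much of the account that follows, import most of their proteins from nuclear genes through translocases of the outer (TOM) and inner (TIM) membranes, and express a small genome of their own.

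Values are TMM-scaled TPM, that is, transcript abundance per unit length (TPM) further scaled between libraries by the authors. limma was run on log2(value + 1), genes with a Benjamini-Hochberg adjusted p under 0.05 count as called, and fold changes are on that scale, which understates the change of low genes. Fold changes are given ± their standard error (n = 5 in each group), and means ± SD. Replicates of the same number deviated together, so the fit was repeated with the replicate number as a block, and "called with the block" refers to that fit. "Only with the block" means called in that fit and not in the same fit without it, and says nothing of other settings. Libraries held 10.3 to 16.9 M (mega) recovered reads. Column sums ran from 852074 to 1794260 in the 10 libraries, and nrp1-1 nrp2-2 replicate 2, with the highest sum, stood apart. Sums of 26 light-harvesting and Rubisco genes were 109138 to 214196 in Col-0 and 108293 to 366921 in nrp1-1 nrp2-2, the marks of green tissue, whereas none of 10 seed genes reached the minimum level for testing.

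Both targeted genes were low in every mutant library. NRP2 (AT1G18800, TAIR10.1 chr1:6481113-6483646, minus strand) stood at 9.16, 12.7, 14.4, 13.4 and 9.48 TMM-scaled TPM in Col-0 replicates 1 to 5 and at 0.353, 0.403, 0, 0.285 and 0 in nrp1-1 nrp2-2. NRP1 (AT1G74560, chr1:28017584-28020059, minus strand) stood at 19.8, 29.980, 31.3, 30.3 and 27.8 in Col-0 and at 9.28, 4.38, 5.57, 8.46 and 6.84 in the mutant. Neither gene's groups overlapped, but NRP1 kept a mean of 6.91 against 27.8 in the wild type. The log2 fold change was -3.40 ± 0.17 for NRP2 (limma adjusted p = 2.63e-10) and -1.89 ± 0.18 for NRP1 (adjusted p = 1.10e-05). In the triple mutant against gcn5-7 the log2 fold changes were -4.62 and -1.998 (limma adjusted p = 6.86e-13 and 4.15e-06).

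CYP98A9, next to NRP1, fell with the targeted genes. The gene (AT1G74550, chr1:28016045-28017711, plus strand), a cytochrome P450 of phenolic metabolism, overlaps the end of NRP1 by 128 bp on the opposite strand. It stood at 2.72, 5.97, 3.04, 4.37 and 3.64 in Col-0 and at 0.0920, 0.421, 0.224, 0.223 and 0.371 in nrp1-1 nrp2-2, with no overlap, a log2 fold change of -1.94 ± 0.19 (limma adjusted p = 1.53e-05). The change was -1.95 in the triple mutant against gcn5-7 (limma adjusted p = 1.19e-05). How the authors' counting treated strand is not given in the sources used here, so reads within the overlap cannot be assigned to either gene. AT1G09487, on the minus strand, overlaps both NRP1 and CYP98A9 but was below the minimum level for testing. It stood at 0.332 ± 0.313 in Col-0 and 0.0154 ± 0.0344 in the mutant. Of the other annotated genes within 5 places of NRP1 or NRP2, 5 were tested (AT1G74580, GSTU10, OTP87, AT1G18773 and AT1G18810). Their log2 fold changes ran from -0.26 to 0.43 and none was called.

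**Figure D1:**
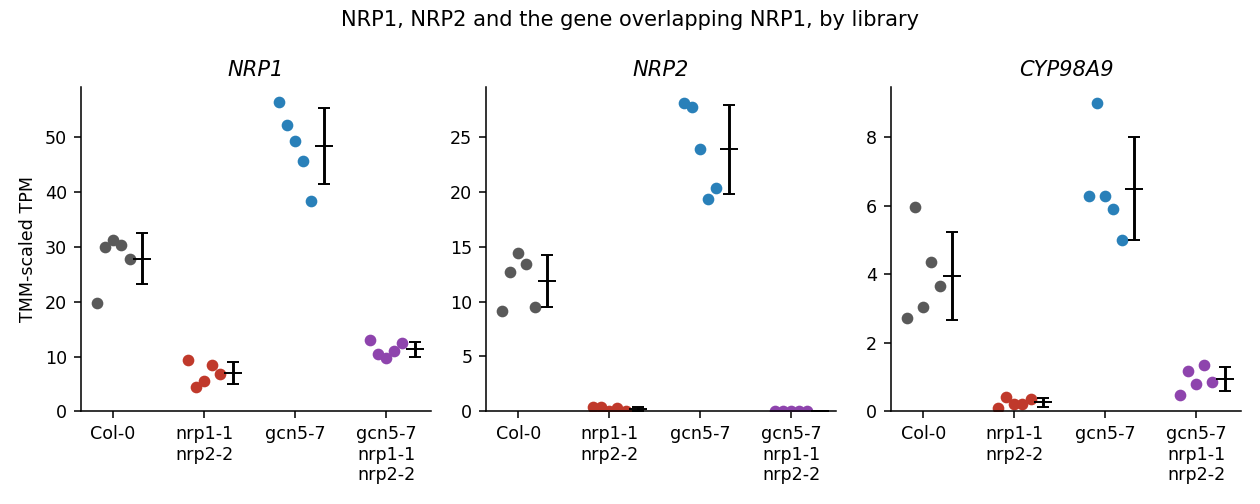
Levels of NRP1, NRP2 and CYP98A9 in all 20 libraries of the experiment (y axis, TMM-scaled TPM; x axis, genotype; points, libraries; bars, mean ± SD, n = 5). The nrp1-1 nrp2-2 and triple-mutant points of each panel lie below those of Col-0 and gcn5-7.

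The rest of the NAP1 family did not pass the test. NAP1;1 stood at 23.1 ± 4.86 in Col-0 and 31.1 ± 12.1 in the mutant, NAP1;2 at 70.4 ± 13.5 and 66.3 ± 25.5, and NAP1;3 at 33.7 ± 7.23 and 36.5 ± 14.9, all with overlapping groups. NAP1;4 was near the detection limit, at 0.530 ± 0.327 and 0.254 ± 0.205. None of 10 other histone chaperones, 17 genes of H2A.Z, SWR1 and INO80, 16 core and linker histones or 12 genes of histone acetylation and SAGA was called without the block, and their median log2 fold changes lay between -0.12 and 0.09, against -0.05 over all genes tested.

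Across the transcriptome few genes were called, and more of them were higher than lower. Of 19507 genes tested, 76 were called in nrp1-1 nrp2-2 (0.390% of genes tested), 58 higher (0.297%) and 18 lower (0.0923%). With the replicate block 334 were called (1.71%), 244 higher (1.25%) and 90 lower (0.461%), and these included all 76. All 5 pairs of libraries were higher for 57 of the 58 genes called higher, and all 5 were lower for each of the 18 called lower. In 195 genes (1.00%) the groups did not overlap, 107 higher and 88 lower in the mutant. By exact permutation of 5 against 5, full separation has a 2-sided p of 0.00794, close to that share. Lack of overlap alone therefore sets few genes apart. Over all genes tested 43.0% had a positive fold change, and the median was -0.05. Fitted on only the 10 libraries compared, 11 genes were called, 4 higher and 7 lower. The count without the block fell to 36 when Col-0 replicate 3 was left out, to 43 for Col-0 replicate 5, to 38 for mutant replicate 1 and to 50 for mutant replicate 5, and rose to 124 for mutant replicate 2. It was 7 in replicates 1 and 2 alone and 86 in replicates 3 to 5 alone, and fewer libraries entered both fits, fewest in the first. Replicates 1 and 2 had a higher plastid share than replicates 3 to 5 within each genotype, and its part in these counts was not tested.

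Nuclear genes for mitochondrial proteins stood out among the genes that rose. Of the 58 genes called higher, 16 (27.6%) are placed in the mitochondrion by RefSeq notes on their products, as are 3.81% of all genes tested. None of the 18 genes called lower is in this class of nuclear genes, but 6 of the 18 are organelle-genome genes, left out by definition. Among the 743 such nuclear genes tested, 16 rose, none fell and 727 were not called, and with the block 37 rose and 3 fell. The median log2 fold change of the class was 0.02, and that of all genes tested was -0.05. The 16 became 10 without Col-0 replicate 3 or without mutant replicate 1, and 27 without mutant replicate 2. They were 9 when library sums were equalised, 32 with a gene-length correction, 1 with only the groups compared and 0 in replicates 1 and 2 alone. This class, and the product families named next, were drawn up after the values were seen.

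**Figure D2:**
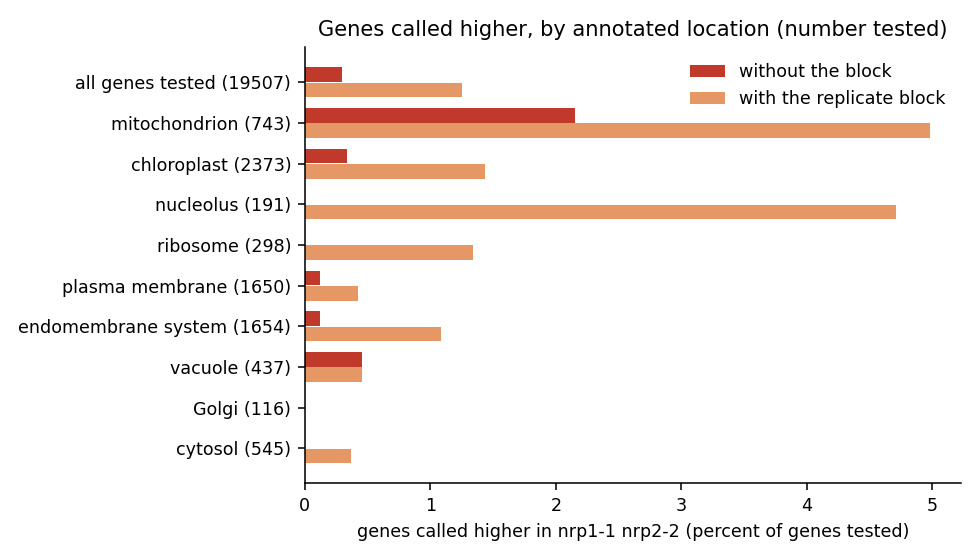
Share of genes called higher in nrp1-1 nrp2-2 (x axis, percent of genes tested) among nuclear genes grouped by the location that the RefSeq notes give (y axis, number tested in parentheses). Red bars are calls without the replicate block and orange bars with it, and the mitochondrion has the longest bar of both kinds, 2.15 and 4.98%, against 0.297 and 1.25% over all genes.

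Prohibitins, which form ring complexes in the inner mitochondrial membrane, were higher as a family, with 3 of 5 tested genes called and a median log2 fold change of 1.05. PHB1 stood at 15.005, 13.6, 12.2, 9.53 and 11.3 in Col-0 replicates 1 to 5 and at 36.2, 26.4, 33.2, 30.7 and 35.8 in nrp1-1 nrp2-2, so that every mutant library exceeded every wild-type library. Its log2 fold change was 1.34 ± 0.16 (limma adjusted p = 1.51e-04), or 12.3 to 32.5 in means. PHB4 stood at 19.7, 15.6, 10.2, 9.81 and 9.68 in Col-0 and at 59.9, 65.3, 24.9, 28.7 and 33.5 in the mutant, 1.58 ± 0.27 (adjusted p = 0.00841), and replicates 1 and 2 were the highest in both groups. PHB2 rose from 29.9 ± 2.82 to 49.7 ± 8.73, 0.70 ± 0.14 (adjusted p = 0.0265). PHB3 and PHB6 were not called without the block (log2 fold change 1.05 and 0.76, limma adjusted p = 0.168 and 0.107), and were called with it (adjusted p = 8.95e-04 and 8.06e-04). All 5 prohibitin genes tested were thus called higher with the block. PHB2, PHB3 and PHB6 are named after their values were seen, and PHB2 is not among the 16.

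The sequences upstream of these 5 genes are shown because all of the genes were called higher with the block. They are the 250 bases before each annotated gene start, cut from the RefSeq TAIR10.1 assembly and written 5′ to 3′ on the gene's strand, with capitals for matches to TGGGCC or TGGGCT on either strand. These letters are known as site II elements, common in promoters of genes for mitochondrial and ribosomal proteins.
PHB1, chr4:14086883-14087132, minus strand: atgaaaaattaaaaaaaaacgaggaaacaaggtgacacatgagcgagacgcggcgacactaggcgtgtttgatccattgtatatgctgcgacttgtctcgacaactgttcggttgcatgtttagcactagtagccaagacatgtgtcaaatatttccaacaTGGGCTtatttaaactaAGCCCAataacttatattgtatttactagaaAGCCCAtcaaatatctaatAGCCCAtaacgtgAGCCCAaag
PHB4, chr3:10076559-10076808, plus strand: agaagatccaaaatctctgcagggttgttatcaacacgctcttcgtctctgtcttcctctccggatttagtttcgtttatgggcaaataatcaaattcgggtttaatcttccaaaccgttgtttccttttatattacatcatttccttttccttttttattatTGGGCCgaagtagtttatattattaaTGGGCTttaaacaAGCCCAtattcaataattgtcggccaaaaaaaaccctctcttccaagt
PHB2, chr1:982003-982252, minus strand: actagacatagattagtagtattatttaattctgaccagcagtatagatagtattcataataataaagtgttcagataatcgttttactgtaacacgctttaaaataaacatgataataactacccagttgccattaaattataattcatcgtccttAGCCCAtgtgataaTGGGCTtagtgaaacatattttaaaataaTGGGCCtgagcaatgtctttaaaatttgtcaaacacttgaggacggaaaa
PHB6, chr2:8841722-8841971, plus strand: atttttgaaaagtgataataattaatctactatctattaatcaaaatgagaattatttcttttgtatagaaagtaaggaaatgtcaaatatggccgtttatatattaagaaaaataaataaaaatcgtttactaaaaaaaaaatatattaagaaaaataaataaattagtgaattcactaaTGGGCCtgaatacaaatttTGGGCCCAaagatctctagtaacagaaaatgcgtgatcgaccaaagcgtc
PHB3, chr5:16317292-16317541, minus strand: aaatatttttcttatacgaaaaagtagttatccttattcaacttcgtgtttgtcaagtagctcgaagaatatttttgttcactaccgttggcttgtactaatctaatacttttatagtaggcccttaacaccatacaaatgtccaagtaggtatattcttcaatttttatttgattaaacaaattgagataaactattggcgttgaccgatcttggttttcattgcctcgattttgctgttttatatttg
The window of PHB1 held 5 matches, those of PHB4, PHB2 and PHB6 held 3 each, of which 2 in PHB6 overlap on opposite strands, and that of PHB3 held 0. Windows cut in the same way for other genes called higher with the block, described below, held fewer matches than that of PHB1. Those of MEE67 and HSP60-2 held 2 each, those of MORF1, GR-RBP3 and AR192 held 1 each, and that of TOM7-2 held 0.

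Over all tested nuclear genes, 22.3% of 19390 such windows held at least 1 site II match. The share was 31.0% of 58 genes called higher, 29.5% of 244 called higher with the block and 8.33% of 12 nuclear genes called lower. It was 33.8% of all 743 genes annotated to the mitochondrion and 54.1% of the 37 among them called higher with the block. It was also 50.0% of 148 genes annotated to ribosome biogenesis or rRNA processing, of which 12 rose with the block. A high share is thus not particular to the mitochondrial genes that rose. The telo-box AAACCCTA was present in 3.82% of all windows, in 6.90% of genes called higher and in 14.2% of the ribosome biogenesis class. Of the other motifs searched on both strands, the W-box TTGAC was in 44.4% of all windows and 39.7% of genes called higher, the G-box CACGTG in 6.98% and 6.90%, the heat shock element GAANNTTC in 9.61% and 15.5%, and the evening element AAATATCT in 4.69% and 8.62%. The abscisic acid response core ACGTG, which lies within the G-box, was in 22.6% and 31.0%. The site II letters and the telo-box were chosen after the values were seen, and a match is a description of letters only.

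Single components of protein import were called higher. MEE67, annotated as a Tim17/Tim22/Tim23 family protein, stood at 2.96, 4.92, 1.70, 3.23 and 1.32 in Col-0 and at 12.8, 18.5, 6.31, 8.65 and 9.08 in nrp1-1 nrp2-2, with no overlap (log2 fold change 1.65 ± 0.26, limma adjusted p = 0.00500). AT1G18320 carries the same annotation and rose by 1.61 ± 0.32 (adjusted p = 0.0255), but the pair are near-identical copies, so the authors' counting could have split reads between them and each value is uncertain. Over the 11 tested genes of that product family these 2 were called, 6 had positive fold changes, and the median was 0.04. TOM7-2, a small subunit of the outer-membrane translocase, rose from 3.94 ± 3.26 to 24.1 ± 15.9 (2.32 ± 0.43, adjusted p = 0.0139), although Col-0 replicate 1 overlapped the mutant range. TOC64-V, whose name comes from the chloroplast translocon but which RefSeq places in the mitochondrion, rose from 1.88 ± 0.3496 to 5.82 ± 1.75 (1.21 ± 0.22, adjusted p = 0.0129).

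AR192 and ATJ1, co-chaperones of mitochondrial protein folding, were called as well. AR192, a co-chaperone of the GrpE family, stood at 8.26, 8.71, 6.80, 9.82 and 7.08 in Col-0 and at 23.561, 13.4, 19.8, 22.9 and 21.4 in the mutant, where replicate 2 was the lowest yet above all Col-0 libraries (1.201 ± 0.17, limma adjusted p = 0.00185). ATJ1, a DnaJ co-chaperone, rose from 1.46 ± 0.437 to 3.39 ± 0.589 (0.84 ± 0.17, adjusted p = 0.0291). The chaperonins HSP60-2 and HSP60-3A and their partners CPN10 and AT1G23100, a GroES-like protein, were not called without the block. Their log2 fold changes were 1.27, 0.91, 0.78 and 1.83, with adjusted p = 0.108, 0.324, 0.404 and 0.0515 without the block and 0.00364, 0.0134, 0.0186 and 8.53e-04 with it in limma. None of 11 tested genes of the heat shock list was called, and their median log2 fold change was -0.06.

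A few genes that act on RNA or translation in organelles were called, all picked from the called genes and not from a list. GR-RBP3, a glycine-rich RNA-binding protein, stood at 9.07, 11.8, 7.61, 9.96 and 6.70 in Col-0 and at 27.3, 26.8, 17.8, 25.3 and 18.202 in the mutant (1.26 ± 0.17, limma adjusted p = 9.24e-04). MORF1, a factor of RNA editing in mitochondria, stood at 10.7, 13.6, 7.14, 12.0 and 8.12 and at 23.3, 17.3, 17.645, 28.4 and 23.7 (1.04 ± 0.19, adjusted p = 0.0116). In both genes the groups were separate, and neither MORF1 nor GRP23 is among the 16. GRP23, a protein of pentatricopeptide repeats, rose by 0.92 ± 0.19 (adjusted p = 0.0324), and AT4G02930, an elongation factor of the EF-Tu family, by 0.90 ± 0.18 (adjusted p = 0.0282). The related editing factors RIP1 and MORF6 were called with the block and not without it (log2 fold change 1.04 and 0.76, limma adjusted p = 0.00180 and 0.0472 with it). By contrast, none of the 177 tested genes with a pentatricopeptide product name, which GRP23 lacks, was called without the block and 3 rose with it, and their median was -0.10. Of the genes placed in the mitochondrion and called only with the block, GR-RBP2, a relative of GR-RBP3, stood at 74.4 ± 30.4 in Col-0 and 159 ± 96.0 in the mutant (limma adjusted p = 0.0105 with it). TIM13, an import chaperone between the membranes, stood at 40.6 ± 11.9 and 65.7 ± 18.1 (adjusted p = 0.0302 with it).

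The mitochondrial glycoprotein family, relatives of the yeast matrix protein Mam33, had 9 tested members, all with positive fold changes and a median of 0.71. AT5G02050 rose from 27.2 ± 7.63 to 64.3 ± 12.4 (1.23 ± 0.19, limma adjusted p = 0.00478), AT3G55605 from 11.7 ± 3.13 to 20.9 ± 1.05 (adjusted p = 0.0255) and AT1G15870 from 1.12 ± 0.417 to 3.31 ± 1.06 (adjusted p = 0.0418). With the block AT4G32605 and AT1G80720 joined them (adjusted p = 0.0100 and 0.0261 in limma). The substrate carriers of the inner membrane were less uniform: of 35 with that product name, AT3G53940 alone was called (from 2.07 ± 0.801 to 5.95 ± 1.23, limma adjusted p = 0.00478), 3 were called higher with the block, and the median was 0.04. Genes outside the rule for named genes in these groups were chosen after their values were seen.

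Transcripts listed under the mitochondrial genome went the other way. Their share of the signal was 0.0597, 0.0638, 0.0369, 0.0314 and 0.0371% in Col-0 replicates 1 to 5 and 0.0256, 0.00983, 0.00766, 0.00529 and 0.00563% in nrp1-1 nrp2-2. No mutant library reached the lowest wild-type value. Of 152 such genes listed, 21 reached the minimum level, of which 5 fell, none rose and 16 were not called, and 7 fell with the block. The median log2 fold change of the 21 was -0.83, against -0.18 for 96 plastid-genome genes, of which 1, ATCG00120, fell and 2 fell with the block.

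A pair of genes, named after their values were seen, held most of that signal in each Col-0 library. ATMG09450 stood at 263, 339, 128, 130.2 and 142 in Col-0 and at 38.5, 46.1, 17.1, 9.30 and 14.2 in nrp1-1 nrp2-2, -3.07 ± 0.38 (limma adjusted p = 2.92e-04). ATMG09730 stood at 186, 206, 83.0, 87.6 and 104 and at 25.0, 30.7, 10.9, 8.37 and 7.74, -3.04 ± 0.37 (adjusted p = 2.38e-04). Without the pair the mitochondrial share was 0.00749 to 0.0255% in Col-0 and 0.00327 to 0.0208% in the mutant, and the groups overlapped. ATMG01080, ATMG00780 and ATMG00590 fell as well (-2.01, -2.44 and -1.42, limma adjusted p = 3.30e-05, 0.00866 and 0.0168). The reference used here gives no names for these identifiers.

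In the gcn5-7 background the full share fell at each replicate number, though the groups overlapped. The mitochondrial share was 0.0574, 0.0486, 0.0270, 0.0360 and 0.0302% in gcn5-7 and 0.0291, 0.0267, 0.0123, 0.00878 and 0.00764% in the triple mutant. Without ATMG09450 and ATMG09730 it was 0.00915 to 0.0183% in gcn5-7 and 0.00319 to 0.0240% in the triple mutant. Replicates 1 and 2 of the triple mutant then lay above every gcn5-7 library. The median log2 fold change of the 21 genes was -0.72 there, and 5 were called lower. ATMG09450 changed there by -2.42 (limma adjusted p = 0.00277) and ATMG09730 by -2.27 (adjusted p = 0.00320). In nrp1-1 nrp2-2 against Col-0, AT2G07671, annotated as an ATP synthase subunit C family protein, fell from 4.85 ± 1.27 to 0.391 ± 0.286 (limma adjusted p = 5.31e-06). AT2G07759 fell in that comparison with a log2 fold change of -1.97 ± 0.41 (limma adjusted p = 0.0332). Both lie on chromosome 2, which in Col-0 carries an insertion of mitochondrial DNA, so reads from either genome cannot be told apart there. Mitochondrial transcripts largely lack the poly(A) tails by which mRNA is often selected, and how RNA was selected is not given in the sources used here. The part of library preparation in this difference was not tested.

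**Figure D3:**
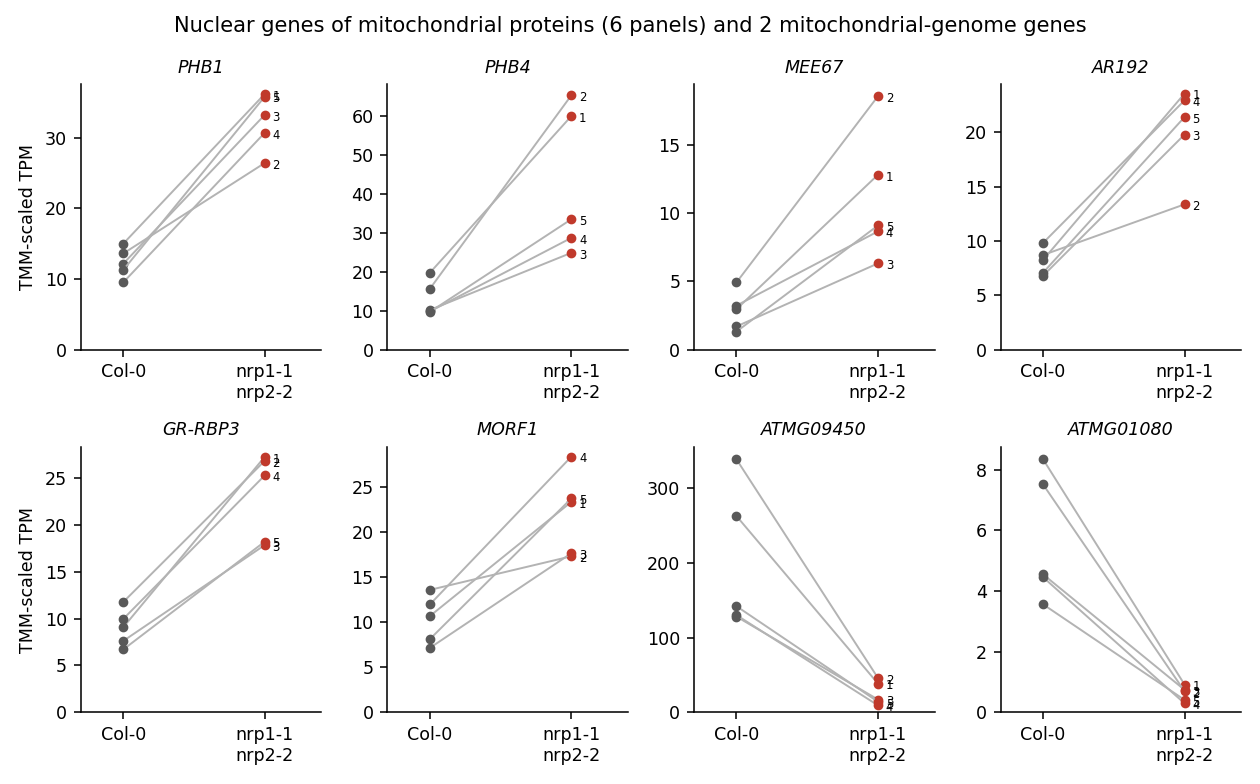
Levels (y axis, TMM-scaled TPM) of 6 nuclear genes for organellar proteins and 2 mitochondrial-genome genes in Col-0 and nrp1-1 nrp2-2 (x axis), with lines joining libraries of the same replicate number (digits, n = 5). All lines rise in the 6 nuclear genes and all fall in ATMG09450 and ATMG01080.

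Most genes of the nucleolus and of ribosome production passed the test in neither fit. Of 148 tested genes annotated to ribosome biogenesis or rRNA processing, 1 rose, none fell and 147 were not called without the block, and 12 (8.11%) rose with it, against 1.25% of all genes. The median log2 fold change was 0.13. PWP2, a protein of the small-subunit processome, stood at 5.41, 6.30, 6.09, 7.84 and 4.72 in Col-0 and at 17.9, 11.2, 9.38, 14.4 and 11.8 in the mutant, with no overlap (0.96 ± 0.18, limma adjusted p = 0.0165). The fibrillarins FIB1 and FIB2 methylate rRNA, and NOP10 is a subunit of pseudouridylation particles. Their log2 fold changes were 0.67, 0.90 and 0.74. The limma adjusted p was 0.658, 0.240 and 0.584 without the block and 0.0240, 0.00602 and 0.0140 with it. Among 191 genes placed in the nucleolus, none was called without the block and 9 (4.71%) rose with it. For 315 ribosomal proteins the median was 0.13, and it was -0.05 over all genes. Scaling that equalised library sums moved the median of all genes by 0.13 to -0.18, and turned the sign of these medians, to -0.03 for ribosome biogenesis, -0.04 for ribosomal proteins and -0.06 for the nucleolus, where the median had been 0.09. The genes of this paragraph were chosen after their values were seen.

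Among genes that respond within minutes to stress, some were several-fold higher. STZ (ZAT10), a zinc finger repressor induced by many stresses, stood at 11.3, 6.82, 9.08, 8.07 and 6.96 in Col-0 and at 27.8, 23.0, 57.3, 30.9 and 37.8 in nrp1-1 nrp2-2, where replicate 3 was highest and the groups did not overlap (1.90 ± 0.39, limma adjusted p = 0.0282). DIC2, a mitochondrial dicarboxylate carrier and another of the 16, stood at 8.14, 12.7, 6.58, 3.62 and 6.53 and at 25.0, 50.5, 27.9, 22.9 and 24.2, with replicate 2 above the other mutant libraries (1.89 ± 0.31, adjusted p = 0.00608). The list of 16 rapid stress genes had a median log2 fold change of 0.78, 14 positive. Of them 2 (12.5%) rose, and 5 (31.2%) rose with the block, against 0.297 and 1.25% of all genes. The 3 added by the block were ERF5, ERF104 and AT5G51190, all ethylene response factors (1.42, 1.55 and 1.05, limma adjusted p = 0.0359, 0.0270 and 0.0451 with it). WRKY40, WRKY46 and WRKY53 of the same list stood at means of 5.46, 6.76 and 8.98 in Col-0 and at 4.60, 7.68 and 11.5 in the mutant and were not called (3 genes picked once values were known). Their log2 fold changes were -0.26 ± 0.54, -0.23 ± 0.76 and 0.15 ± 0.48. In each of them a single mutant library stood apart as the highest, which raised the mutant mean. In the triple mutant against gcn5-7 the list's median was -0.24 and none of the 16 was called, and no member was called for the difference between backgrounds. None of the 26 genes of salicylic acid defence or of the 19 tested jasmonate genes was called.

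Apart from the FLC clade, described next, the lists without a called member had medians from -0.27 (circadian clock) to 0.23 (light harvesting and Rubisco), and all 26 genes of the latter had positive fold changes, with a median of 0.06 when library sums were equalised and 0.00 after quantile normalization. Sums of 12 root markers were 76.9 to 103 in Col-0 and 61.5 to 82.8 in the mutant, and 4 of the 12 were at 0 in all libraries of each group, PLT1, PLT2 and BGLU21 in both. The part of tissue make-up in the results was not tested, and fewer cells of a type cannot be told apart from less RNA per cell.

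Regulators of flowering were called in both directions, the lower one only with the block. RAV2 (TEM2), a repressor of FT, stood at 4.48, 6.85, 5.22, 2.49 and 2.78 in Col-0 and at 15.8, 15.003, 37.4, 8.25 and 13.6 in the mutant (1.73 ± 0.38, limma adjusted p = 0.0488). Its paralogue TEM1 stood at 6.62, 5.65, 7.68, 2.71 and 2.62 and at 20.4, 12.7, 48.7, 11.8 and 17.9, and was called only with the block (1.84 ± 0.51, adjusted p = 0.201 without and 0.00790 with it). In both genes mutant replicate 3 was the highest and the groups did not overlap. SEP3, a MADS-box factor and the 1 called of 4 tested genes of floral organ identity, was low in both genotypes, at 0.509, 0.279, 0.190, 1.27 and 0.538 in Col-0 and 3.03, 4.00, 3.04, 3.34 and 1.299 in the mutant, yet separate (1.33 ± 0.24, adjusted p = 0.0126). The summed level of 10 floral genes was 15.3 to 29.5 in Col-0 (median 17.9) and 22.6 to 38.1 in the mutant (median 26.6), and the part of floral tissue in these values was not tested. SWEET10, a sugar transporter, rose from 1.28 ± 0.822 to 7.08 ± 5.64 (1.68 ± 0.31, adjusted p = 0.0128), with replicate 2 far above the others. FT, named after its values were seen, stood at 2.72 ± 1.14 in Col-0 and 3.51 ± 0.727 in the mutant and was not called (limma adjusted p = 0.983). Of the 19 flowering-time genes tested, 1 rose and none fell, and 2 rose with the block.

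FLC, the MADS-box repressor of flowering, stood at 7.27, 6.92, 3.27, 2.97 and 2.25 in Col-0 and at 1.04, 0.446, 0.105, 0.883 and 1.92 in nrp1-1 nrp2-2. The highest mutant library lay below the lowest wild-type library. FLC was called lower with the block and not without it (log2 fold change -1.53 ± 0.39, limma adjusted p = 0.125 without and 0.0236 with it). The blocked call was lost without pair 1, 2, 3 or 4 (adjusted p = 0.0889, 0.149, 0.0597 and 0.0668 in limma), and with a gene-length correction and no block it was called (adjusted p = 0.0330). All 6 genes of its clade had negative fold changes, with a median of -0.84. None of the others was called in either fit: MAF1 stood at 9.25 ± 1.52 and 6.47 ± 0.519, AGL31 (MAF2) at 6.58 ± 1.93 and 3.56 ± 1.42, and MAF3 at 7.56 ± 2.08 and 6.32 ± 1.16. MAF4 stood at 3.79 ± 2.41 and 1.35 ± 0.901 and MAF5 at 6.27 ± 5.43 and 2.23 ± 0.553. In the triple mutant against gcn5-7, FLC had a log2 fold change of -0.48 (limma adjusted p = 0.480), and the clade's median was -0.45.

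The remaining genes named by size of change do not belong to these groups. LBD37, a nitrogen-responsive repressor, stood at 20.6, 16.8, 6.71, 9.81 and 6.75 in Col-0 and at 46.3, 35.5, 39.7, 29.3 and 20.6 in the mutant, where replicate 5, the lowest, exceeded Col-0 replicate 1 by less than the printed precision (1.51 ± 0.27, limma adjusted p = 0.0128). RTFL17, a small peptide of the ROTUNDIFOLIA-like family, rose from 18.5 ± 5.09 to 48.7 ± 14.4 (1.33 ± 0.24, adjusted p = 0.0115). DEAR2, a DREB-type factor with a repression motif, rose from 5.21 ± 2.3 to 14.5 ± 5.36 (1.33 ± 0.24, adjusted p = 0.0128), and EMB3127, of the amino acid dehydrogenase family, from 7.69 ± 1.70 to 16.6 ± 4.73 (adjusted p = 0.0395). The largest fold change among the called genes was that of a gene with no symbol. AT5G22430, annotated as a pollen Ole e 1 and extensin family protein, stood at 0, 0.374, 0, 2.46 and 0.180 in Col-0 and at 28.9, 63.0, 60.7, 11.8 and 3.15 in nrp1-1 nrp2-2. The wide spread among mutant libraries left the groups separate (4.02 ± 0.67, limma adjusted p = 0.00715). AT2G20870, a putative cell wall protein, rose from 6.03 ± 1.85 to 53.6 ± 38.2 (adjusted p = 0.0128), and AT5G21940 from 32.4 ± 15.3 to 146 ± 39.8 (adjusted p = 0.00277). These last 3 were chosen after their values were seen, and AT2G20870 overlaps AT2G20873.

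The genes in this paragraph were picked from the other genes called higher after their values were seen, and no class of them was counted. AT3G13230, an RNA-binding protein with a KH domain, rose from 17.7 ± 4.42 to 32.1 ± 3.46 (limma adjusted p = 0.0150), AT3G18580, an OB-fold protein, from 7.93 ± 1.68 to 18.3 ± 6.26 (adjusted p = 0.0244) and AT3G19440, a pseudouridine synthase, from 2.50 ± 0.869 to 6.27 ± 1.36 (adjusted p = 0.0232). AT1G63250, a DEAD-box helicase, rose at a low level, from 0.797 ± 0.301 to 2.37 ± 0.857 (adjusted p = 0.0488). Pseudouridine synthases modify RNA and helicases unwind it. CAF1a, a deadenylase that shortens poly(A) tails, stood at 13.3, 16.5, 7.48, 3.62 and 6.26 in Col-0 and at 30.7, 64.3, 27.0, 15.9 and 25.4 in the mutant, with overlapping groups (1.70 ± 0.36, limma adjusted p = 0.0354). TCL1, a small MYB repressor of trichome formation, rose from 0.718 ± 0.358 to 3.82 ± 2.21 (adjusted p = 0.0126), and FER2, an iron-storing ferritin, from 0.879 ± 0.485 to 4.60 ± 2.64 (adjusted p = 0.0220). In the triple mutant against gcn5-7 AT3G19440 rose by 1.18 (limma adjusted p = 0.00615), whereas TCL1 and CAF1a, with 0.10 and 0.27, were not called.

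Few genes beyond the targeted loci and the mitochondrial genome were called lower. CBL10, a calcium sensor of the salt response, stood at 13.4, 23.1, 19.973, 19.8 and 18.8 in Col-0 and at 9.21, 9.14, 7.71, 10.6 and 10.7 in the mutant, with no overlap (-0.92 ± 0.19, limma adjusted p = 0.0323). AT5G05060, a cystatin-like protein named once its values were known, fell from 36.4 ± 5.18 to 18.9 ± 4.03 (-0.93 ± 0.16, adjusted p = 0.00877). The 18 genes comprised 8 annotated as protein coding, 3 noncoding RNAs and 6 organelle-genome genes, beside AT2G07759. AT2G05705, one of the noncoding RNAs, stood at 2.89, 8.88, 2.59, 3.53 and 3.97 in Col-0 and at 0.550, 0.627, 0, 0.266 and 0.737 in the mutant (limma adjusted p = 0.00866). AT2G12190, a cytochrome P450, fell from 4.44 ± 1.99 to 1.295 ± 0.712 (adjusted p = 0.0178) and had a log2 fold change of 0.42 in the gcn5-7 background, where it was not called. Both were chosen after their values were seen.

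Genes called with the block lay next to each other in 4 places, 3 of lower and 1 of higher genes. On chromosome 4, 8 of 10 tested genes between AT4G22475 and AT4G22520 (TAIR10.1 chr4:11844242-11858970, 14.7 kb) were called with the block, with log2 fold changes from -1.60 to -2.18, and 5 of the 8 are annotated as lipid-transfer-like proteins. AT4G22510 is an example, at 25.9, 64.7, 18.3, 23.1 and 18.6 in Col-0 and 8.20, 14.4, 1.36, 5.59 and 7.19 in the mutant (limma adjusted p = 0.161 without and 0.00110 with the block). A further run of 5 of 7 tested genes from AT4G13560 to AT4G13575 (chr4:7879558-7893761) had changes from -0.89 to -1.59 with the block. It holds HTA4, a histone H2A gene, at 2.35, 7.49, 9.54, 7.34 and 7.32 in Col-0 and 1.01, 4.16, 0.82, 3.43 and 1.09 in the mutant, where ranges overlapped (adjusted p = 0.0980 without and 0.00455 with the block). None of these genes was called without it at the main settings, though with a gene-length correction and no block HTA4 and AT4G22510 were (limma adjusted p = 0.0482 and 0.0181). HTA4 was also called without Col-0 replicate 1 or mutant replicate 2 (adjusted p = 0.0177 and 0.0223). Several overlap a neighbour on the opposite strand, and genes in such runs that share sequence are not independent. In the triple mutant against gcn5-7 the 5 genes of the second run had log2 fold changes from -1.26 to -1.74 and the 8 of the first from -0.29 to -1.43. On chromosome 2, all 3 tested genes from AT2G32810 (BGAL9, a beta-galactosidase) to AT2G32850 (chr2:13919127-13938845) were called lower with the block, -1.39 to -1.54, and AT2G32840 also without it. Their log2 fold changes in the gcn5-7 background were -0.18 to -0.76. All 3 tested genes from AT2G40000 to AT2G40010 (chr2:16700490-16710772) were called higher with the block, 0.57 to 1.57.

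**Figure D4:**
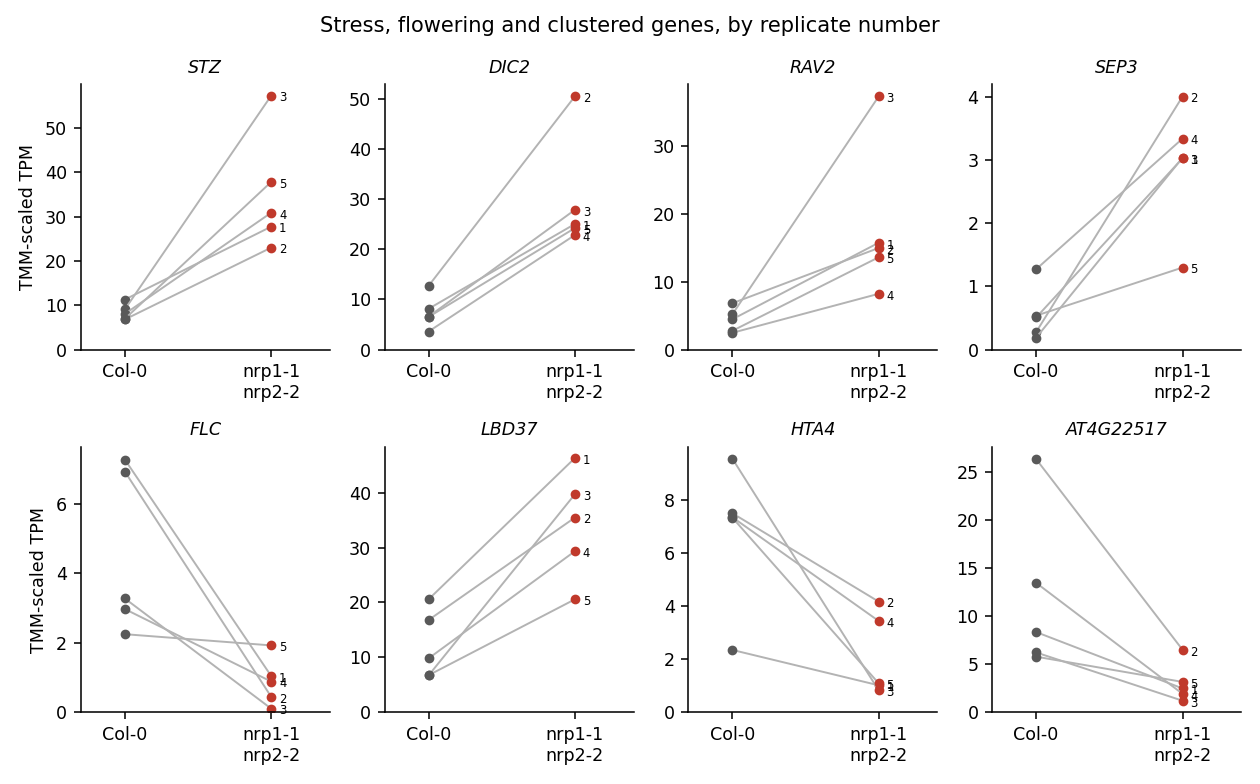
Levels (y axis, TMM-scaled TPM) of STZ, DIC2, RAV2, SEP3, FLC, LBD37, HTA4 and AT4G22517 in Col-0 and nrp1-1 nrp2-2 (x axis), with lines joining libraries of the same replicate number (digits, n = 5). Lines rise in STZ, DIC2, RAV2, SEP3 and LBD37 and fall in FLC, HTA4 and AT4G22517.

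The same loss in the gcn5-7 background repeated most directions. Of the 58 genes called higher, 57 (98.3%) had a positive fold change in the triple mutant against gcn5-7, and 16 of the 18 called lower had a negative one, while 65.5% of all genes tested had the same sign in both. The median change of the 58 was 0.73 there, against 1.26 in the comparison with Col-0. That comparison called 627 genes (3.21%), 405 higher (2.08%) and 222 lower (1.14%), and 36 genes were called in both in the same direction, which is 47.4% of the genes called here and 5.74% of those called there. With the block the counts were 4953 (25.4%) and 202. None was called in opposite directions in either fit. Across all genes tested the log2 fold changes had a Pearson correlation of 0.40 and a Spearman correlation of 0.41, given as a description, since genes are not independent and both comparisons come from one experiment.

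Individual genes followed this pattern to different degrees. PHB1 rose by 0.80 in the gcn5-7 background (limma adjusted p = 0.0109), PHB4 by 1.01 (adjusted p = 0.0445), AR192 by 0.70 (adjusted p = 0.0331) and GR-RBP3 by 0.77 (adjusted p = 0.0195). AT5G21940 rose by 2.05 (adjusted p = 0.00285), close to its 2.21 against Col-0, and DEAR2 by 1.21 (adjusted p = 0.0114). STZ, DIC2, RAV2 and SEP3 had log2 fold changes of 0.49, 0.53, 0.71 and 0.34 there and were not called. The difference between backgrounds was itself called for 8 of 19507 genes (0.0410%) and for none of the 76, and with the block for 217 genes (1.11%), 5 of them among the 76. Without the block, 26 of the 76 had an unadjusted limma p below 0.05 for this difference. The 76 were chosen by 1 of the changes compared, so that number has no plain reading. In that fit a difference between backgrounds in the stress and flowering genes was not established (limma adjusted p = 0.573 for STZ, 0.486 for DIC2, 0.744 for RAV2 and 0.492 for SEP3).

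**Figure D5:**
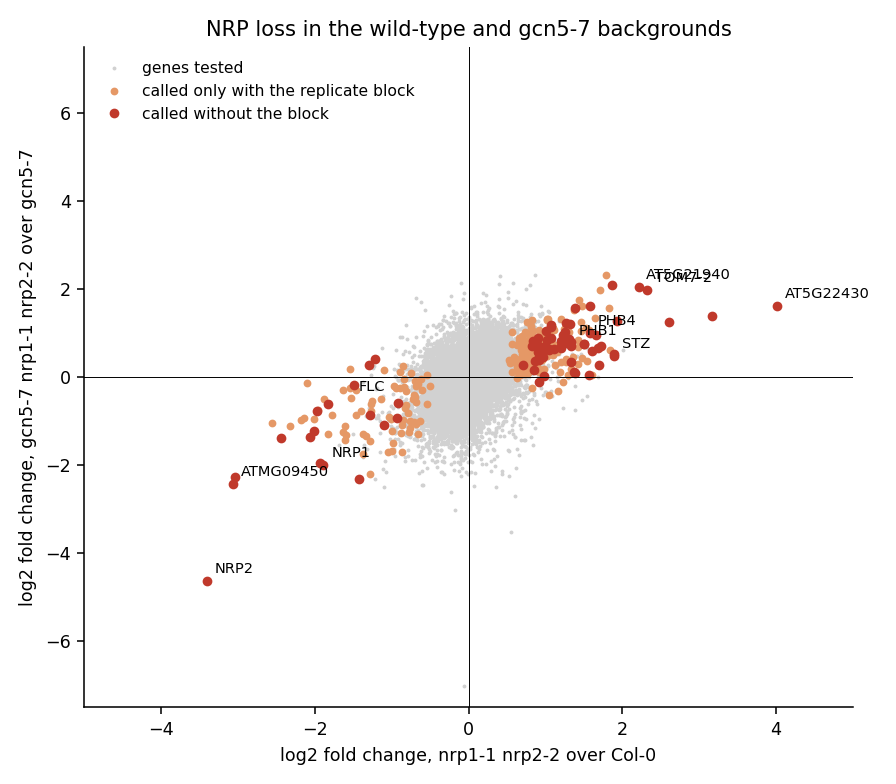
Log2 fold change of each tested gene in nrp1-1 nrp2-2 over Col-0 (x axis) and in gcn5-7 nrp1-1 nrp2-2 over gcn5-7 (y axis); grey, all 19507 genes; orange, genes called against Col-0 only with the replicate block; red, the 76 called without it. Red points lie mostly in the upper right and lower left, with NRP2 at the lower left.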

How the data were processed

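RNA sequencing of whole seedlings gave 20 libraries of experiment B in 4 genotypes. Experiment A was not used here. Reads were trimmed with fastp 0.23.4 and aligned with HISAT2 2.2.1 to TAIR10, per the submitters' processing notes. The authors deposited a signal per gene for 32833 genes, TPM scaled by TMM, per the labels and column names. Of these identifiers 32536 matched the RefSeq annotation of TAIR10.1. How reads were counted, on which annotation, and how RNA was selected is not given in the sources used here. Values multiplied by RefSeq exon length were divided by the worth of 1 read, found by search in each library. Then 99.4 to 99.6% of values below 20 reads lay within 0.05 of a whole read, which gave the depths.

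Tests took the genes whose mean over the 20 libraries was 1 or more, on log2(value + 1), pseudocount 1, with limma 3.58.1 in R 4.3.3 (trend, robust, all 4 genotypes in 1 fit, 16 residual degrees of freedom, no block). Groups are those of the labels. In simulated data for this comparison the fit called 4 of 80 genes changed by 0.5 (log2), 30 of 60 changed by 1 and 53 of 60 changed by 2, with 4 false among 91 calls. The simulation drew independent normal noise with each gene's own spread, and changed only genes with a Col-0 mean above 2 on the log2 scale. It modelled neither depth nor the shared deviations of same-numbered libraries. Same-numbered libraries of Col-0 and nrp1-1 nrp2-2 correlated at 0.59 to 0.77 after group means were removed, and at 0.12 to 0.54 for gcn5-7 and the triple mutant. Replicates 1 and 5 correlated more with another number (0.68 and 0.62). The pairing comes from these data, not from the labels. Named genes are NRP1, NRP2 and 5 annotated neighbours on each side, up to 15 highest and 15 lowest changes among called genes with a symbol, a mean of at least 5 and no overlap, called members of 30 gene lists (476 entries), and the NAP1 and FLC families. The 15 lowest came to 3. Any other gene was chosen after its values were seen. Genes and lists were chosen with earlier results of these data known. Alternatives were the block, only the groups compared, other pseudocounts and filters, other scalings, a gene-length correction, subsets of replicates and leaving out each library. Promoter windows ended 1 base before the gene start.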

Additional observations from a re-analysis of the deposited data

Results flagged for a closer look

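Among 278 groups of 5 libraries (139 genes in Col-0 and nrp1-1 nrp2-2), a single library stood apart from the other 4 in 26. For independent normal values the Dixon limit used (0.71) marks about 1 group in 20, or 13.9 groups. Some of these genes were chosen after their values were seen, and libraries deviated together, so that rate need not hold here. In nrp1-1 nrp2-2 the highest value was apart for RAV2 (37.4 TMM-scaled TPM), DIC2 (50.5), SWEET10 (16.8), TEM1 (48.7), ERF104 (23.9), WRKY40 (11.1), WRKY46 (27.1), WRKY53 (28.9), AT3G55605 (22.7), AT1G27921 (3.27), MAP65-8 (4.92), AT2G05915 (5.32) and ATMG00590 (0.132), and the lowest for COX15 (7.55) and SHL1 (32.9). In Col-0 the highest value was apart for TOC64-V (2.49), ATJ1 (2.21), AT1G18773 (10.8), AT5G22430 (2.46), AT4G22510 (64.7), AT2G05705 (8.88), AT3G09275 (36.5), SAG29 (4.99), WRKY53 (16.7) and ATCG00120 (14.8), and the lowest for MAF3 (3.98). The mutant library was replicate 3 for RAV2 and TEM1 and replicate 2 for DIC2 and SWEET10.

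The effect of NRP loss differed with and without gcn5-7 in 8 genes, by limma's test of the difference between the log2 fold changes. It was larger in the gcn5-7 background by 1.98 for PGL34, a plastoglobulin, 1.70 for FUC1, an alpha-L-fucosidase, 1.47 for AT1G68260, a thioesterase, and 2.25 for AT2G40960. The difference was -1.79 for AT2G41780, -4.08 for AT1G75945, -6.95 for AT1G64795 and -2.54 for AT2G11405. These genes fell in the gcn5-7 background, with log2 fold changes of -1.33, -3.52, -7.01 and -2.47 in that order. Their Col-0 means were 1.18, 0.193, 0.325 and 0, so little or no fall could be seen against Col-0. PGL34 stood at 27.8 ± 4.37 TMM-scaled TPM in Col-0, 26.7 ± 5.33 in nrp1-1 nrp2-2, 4.1 ± 1.21 in gcn5-7 and 18.1 ± 3.19 in the triple mutant (SD, n = 5). AT1G64795 stood at 0.325 ± 0.515, 0.308 ± 0.689, 152.9 ± 74.2 and 0.109 ± 0.243 in the same order. None of the 8 was called in nrp1-1 nrp2-2 against Col-0.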

How the results depend on the processing

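Counts are given for nrp1-1 nrp2-2 against Col-0 (76 genes, 58 higher and 18 lower), the triple mutant against gcn5-7 (627), both in the same direction (36) and the difference between backgrounds (8). With the replicate block, which uses the pairing seen in the data, they were 334 (244 and 90), 4953, 202 and 217. Fitted on only the groups compared, the first count was 11 (4 and 7) and the third 10. With no filter on low values the last was 25. With a minimum mean of 5 they were 47 (7 lower), 378, 23 and 5. With equal sums the first count was 39 (24 higher) and the third 18. With quantile normalization the second was 1246 and the last 14. With a gene-length correction they were 173 (137 and 36), 1015, 82 and 21, and 531 (387 and 144), 5088, 297 and 473 with the block as well, an alternative chosen after seeing the data. Across tested genes the log2 change and exon length had a rank correlation of -0.27. In replicates 1 and 2 only they were 7 (3 and 4), 215, 3 and 2, where fewer libraries entered. In replicates 3 to 5 only the second count was 139 and the last 2. Leaving out 1 library gave 36 to 124 (22 to 103 higher, 12 to 21 lower), 182 to 1669, 21 to 58 and 6 to 18. The second count was highest without triple-mutant replicate 3 and lowest without triple-mutant replicate 5. Leaving out 1 pair with the block, also added later, gave 119 to 357 (79 to 300 higher, 40 to 62 lower), 1566 to 4949, 58 to 191 and 8 to 262. The first of these was 149, 152 and 119 without pairs 3, 4 and 5. Except where fewer genes or libraries entered, the cause was not tested. Genes annotated to the mitochondrion and called higher numbered 9 with equal sums, 32 with the length correction, 59 with that and the block, 0 in replicates 1 and 2, 21 in replicates 3 to 5 and 1 with only the groups compared. None of the 76 genes reversed its direction under any of the 26 alternatives in which it was tested, but many of these could not reverse it. The block with all pairs, only the groups compared and the filters leave the fold change unchanged. Leaving out libraries cannot reverse the 68 genes whose groups did not overlap. Of the 76, 30 stayed called without any 1 of the 10 libraries. These include NRP1, NRP2, CYP98A9, PHB1, PHB4, MEE67, AR192, GR-RBP3, MORF1, DIC2, RTFL17, ATMG09450 and ATMG09730. The calls of STZ, RAV2, PHB2, EMB3127 and CBL10 were lost in most leave-outs of 1 library. Of the 45 genes examined singly that were called with the block and not without it, 22 were called in at least 1 alternative without the block, and 34 lost the blocked call when some pair was left out. The block ended none of the 76 calls. The smallest 2-sided exact permutation p for 5 against 5 is 0.00794. With 5 libraries in each group and the spread seen here, few changes of 0.5 (log2) were called in the simulation.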

Other observations

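All genes here were chosen after their values were seen. AT2G37690, annotated as phosphoribosylaminoimidazole carboxylase, an enzyme of purine synthesis, stood at 3.15, 7.36, 2.89, 5.66 and 5.73 TMM-scaled TPM in Col-0 replicates 1 to 5 and at 14.8, 9.41, 9.55, 15.2 and 18.6 in nrp1-1 nrp2-2 (log2 fold change 1.302 ± 0.23, limma adjusted p = 0.0116). ASE1, the amidotransferase of the first step of that pathway, was low, at 0.600 ± 0.487 and 1.86 ± 1.04, and was not called without the replicate block (adjusted p = 0.296 without and 0.0413 with it in limma).

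PORB, a protochlorophyllide reductase of chlorophyll synthesis, stood at 134, 197, 111, 95.4 and 163 in Col-0 and at 66.6, 73.1, 35.3, 52.7 and 91.1 in the mutant, without overlap, and RVE8, a factor of the circadian clock, at 53.7, 63.3, 59.8, 51.9 and 62.0 and 42.0, 34.9, 44.5, 41.6 and 34.8, also without overlap. Both were called lower with the block (limma adjusted p = 1.94e-04 and 0.0323) and not without it (0.0927 and 0.159). PORB was also called without the block under equal sums and quantile normalization (adjusted p = 0.0198 and 0.0282), and RVE8 lost its blocked call when any 1 pair was left out. SKB1, an arginine methyltransferase of histones and other proteins, rose from 11.1 ± 1.84 to 21.9 ± 4.88 (0.90 ± 0.16, limma adjusted p = 0.0128) and by 0.90 in the gcn5-7 background (adjusted p = 0.00720).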
